A study of Pinus pinaster with 66 samples.

Results

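The 150 cDNA spots described here had their highest monthly mean in January in the mature needles of maritime pine, *Pinus pinaster*. They were chosen from 5788 eligible spots of the 8208 on the array. For each spot, the means of Whorls 1, 2 and 3 were averaged within a month, and the January mean minus the highest mean of the other 5 months was taken as the January excess. The 150 spots with the largest January excess were the members. Whorl 0, the whorl formed in the year of harvest, took no part in this choice.

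Needles were harvested in January, March, May, July, September and November from trees 20 to 25 years old. Whorls 0, 1, 2 and 3 had grown in 2012, 2011, 2010 and 2009, and Whorl 0 was sampled only from May onwards. RNA of 6 trees was pooled 2 by 2, so that each of the 22 groups of month and whorl had 3 arrays, each a pool and not a tree. On every array the Cy3-labelled needle RNA was set against 1 Cy5-labelled pool of January needles. A value is therefore the log ratio of a needle sample to January needles, read as log2 although the base of the logarithm was not given, and a value of 0 is the level of that pool. The dyes were the same way round on every array, so a dye bias of a spot enters each value against the pool. Such a bias was not tested, and one constant over arrays drops out of differences between groups. The same 6 field-grown trees of 1 site were used in every month, and nothing in the labels separates month from the date of handling, so that the 2 cannot be told apart. Neither the choice nor the tests used replicate 2 of Whorl 2 in November, which leaves 65 arrays. The study had taken that array out of its network analysis as an outlier in hierarchical clustering. The median of every array is 0, and between 6519 and 8076 spots had a value on an array used.

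Evergreen pine needles pass the winter in a cold-hardened state, in which growth stops, photosynthesis slows and protective proteins, sugars and membrane lipids are adjusted. In spring the tissue loses hardiness and a new whorl of needles expands, greens and then thickens its walls before its own first winter. Transcripts that stand highest in January in old needles are thus seen against a year in which cold, light, water and needle age all change. None of the tables or texts used here pairs a member with a gene, so the members are given by spot name and without sequence. In whole needles, fewer cells of a type and less RNA per cell cannot be told apart.

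By construction the January mean of every member lay above its means in the other months, and the monthly means of Whorls 1 to 3 are given only as a description. Over the members, the median of these means was 0.19 for January and 0.05 for March. The later months gave medians of -0.03 (May), -0.08 (July), -0.09 (September) and -0.02 (November). The median of all eligible spots lay within 0.02 of 0 in every month. March was the next highest month for 70 members, September for 31, May for 25, November for 18 and July for 6, and the lowest month was September for 61 and July for 43. March or November thus came next in 88 of the 150.

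**Figure D1:**
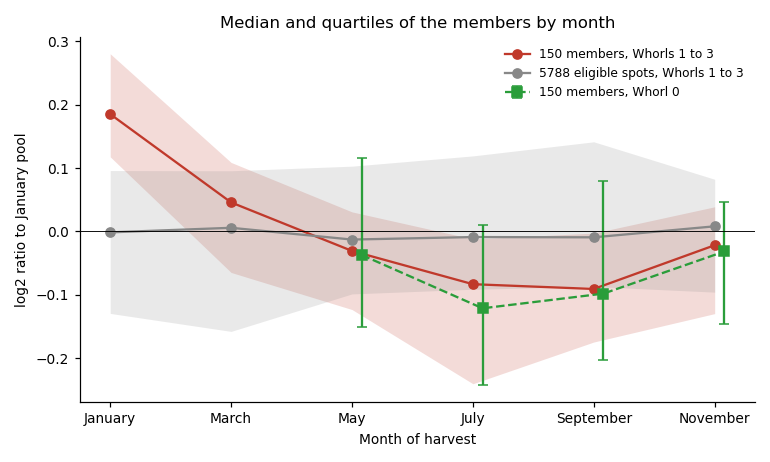
Log2 ratio to the January pool by month of harvest. Lines give the median and bands the middle 50% over spot means in Whorls 1 to 3 for the 150 members and the 5788 eligible spots, and squares with bars give the median and middle 50% of the members in Whorl 0. The members' line peaks at 0.19 in January because they were chosen for it, and Whorl 0 was not used in the choice.

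The January excess was small for most members. It was above 0.3 in 4 members and above 0.2 in 16, with a median of 0.12. The last member, Q9F15, had an excess of 0.0833 and the first spot outside, Q2P22, one of 0.0829, so that the border falls where neighbouring spots hardly differ. Q9F15 ran from 0.06 to 0.38 over the 9 January arrays and from -0.05 to 0.20 over those of March. The excess was smaller than the spread among replicate arrays, the within-group SD, in 56 members, and the median of that SD was 0.11 over members and 0.10 over eligible spots. As a further description of the values that chose them, in 5 members, and in 0.0864% of all eligible spots, the lowest January array lay above the highest array of the next month. In 0 members, and in 0 eligible spots, did all 9 January arrays lie above the other 44 arrays of Whorls 1 to 3.

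Leaving out a member's highest January array lowers its excess by construction, and 53 of the 150 then fell under the excess of the last member. In 6 members the highest January array lay more than 0.5 above the second highest. Q7C12 read 4.24 on January Whorl 1 replicate 2 against 0.39 on the next highest, and Q6D19 read 2.47 against 0.18 on the same array. Without their highest January array these 2 members had an excess of -0.28 and -0.08, and they were the 2 members for which it was not above 0. Q7J19 read 1.83 on January Whorl 2 replicate 3 and between 0.30 and 0.56 on the other 8 January arrays, and its excess without that array was 0.51. Q6P23 read 1.46 on that same array, and its excess fell from 0.30 to 0.18 without it. Q4L1 and Q5G24, the other members of this kind, kept an excess of 0.01 each.

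The first number in a spot name was read as a plate, and the letter and last number as its row and column. No source used here states this layout, so the reading is an assumption wherever plates are named. The members were unevenly spread over the plates read in this way. Plate 9 held 37 of the 150, which is 13.4% of its eligible spots, and plate 20 held 22, or 6.43%. Plates 10 to 19 together held 15 members, or 0.466% of 3216 eligible spots, although they hold 55.6% of all eligible spots. Over all eligible spots of a plate, the January median ranged from -0.11 to -0.01 on plates 10 to 19 and from 0.00 to 0.15 on plates 1 to 9. Plates 1 to 9 also had more missing values, between 9.33% and 18.1% of their readings against 1.21% to 4.29% on plates 10 to 19. Plates thus differed in their January level. After each array was centred on the median of each plate, an alternative chosen after these shares were seen, 57 of the 150 were chosen again and plate 9 held 4 chosen spots. The 57 include 11 of the first 12 members, 42 of the first 50 and 5 of the last 50. The part of plate position in the choice was not tested further. Members were found in every row, between 5 and 18 in each, and in every column, between 2 and 12 in each.

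**Figure D2:**
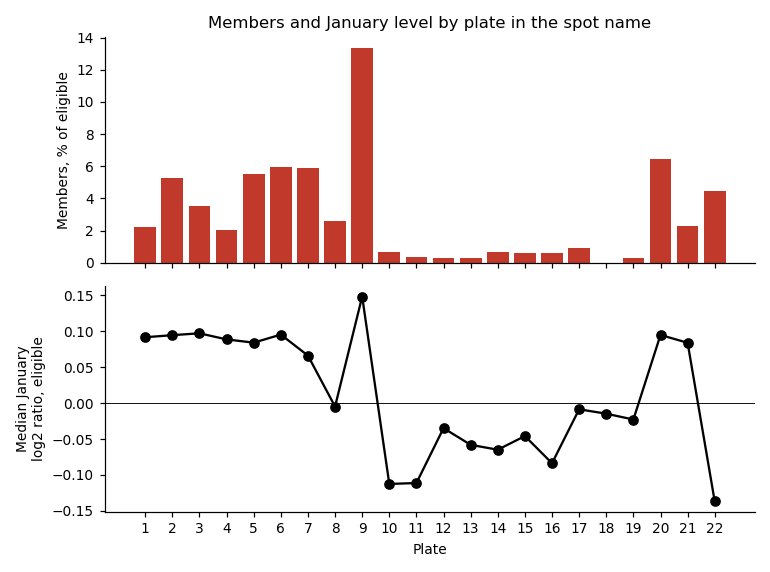
Members as a percentage of the eligible spots of each plate (bars, top) and the median January log2 ratio of the eligible spots of that plate in Whorls 1 to 3 (points, bottom), for the 22 plates of the spot names. Plate 9 has the highest share of members, 13.4%, and plates 10 to 19 the lowest January medians apart from plate 22.

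The 4 members with the largest January excess, Q11A11, Q7J19, Q10C17 and Q8D19, shared 1 profile. Their excess was 0.74, 0.67, 0.66 and 0.66, more than 2 times that of the fifth, Q6P23, at 0.30. They lie on plates 11, 7, 10 and 8, and Pearson's r between them ran from 0.84 to 0.98 over the 65 arrays and from 0.82 to 0.99 over the 12 Whorl 0 arrays, as a description of arrays that share the months. Spot names do not show whether such spots come from 1 gene or from near-identical copies.

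Q11A11 read 0.33, 0.20 and 0.21 in January Whorl 1, 0.23, 0.30 and 0.46 in Whorl 2 and 0.40, 0.51 and 0.56 in Whorl 3. In March its 9 arrays lay between -0.66 and -0.28, and the lowest mature needle group was May Whorl 3 with -1.18, -0.94 and -0.69. May Whorl 1 was the exception among mature needles, with arrays spread from -0.48 over -0.07 to 0.40, so that 1 of its arrays reached the January range. Q10C17 was alike, with 0.30, 0.28 and 0.16 in January Whorl 1 and -0.61, -0.17 and 0.22 in May Whorl 1. Its May Whorl 2 arrays read -1.01, -0.92 and -1.05, below every January array.

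In Whorl 0, which did not choose them, all 4 spots were called above the pool in May, and Q11A11, Q10C17 and Q8D19 below it in July. The July mean of Q7J19, -0.27 ± 0.15, did not pass (limma adjusted p = 0.129). Q11A11 read 0.46, 0.36 and 0.44 in the expanding May needles, above 0 by 0.42 ± 0.09 (SE, n = 3; limma adjusted p = 0.00013), and then -0.72, -0.96 and -0.88 in July. The groups did not overlap, and the July minus May difference was -1.27 ± 0.13 (limma adjusted p = 1e-10). Q10C17 gave -1.30 ± 0.13 for the same difference and Q8D19 gave -1.10 ± 0.10. The difference of Q7J19 was -0.82 ± 0.21 (limma adjusted p = 0.0027), with July arrays at -0.14, -0.22 and -0.44. From July to September Q11A11, Q10C17 and Q8D19 rose again by 0.72, 0.86 and 0.59, without reaching their May level, and in November they stood between -0.67 and -0.27 on each array. On the left-out November Whorl 2 array the 4 read 0.18, 0.49, 0.25 and 0.21, above the other 2 arrays of that group.

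**Figure D3:**
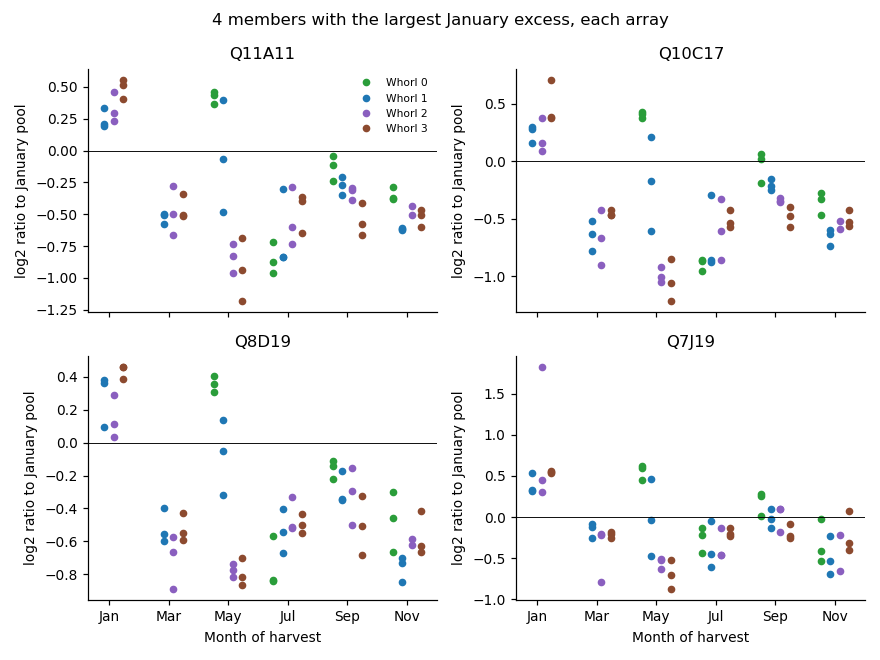
Log2 ratio to the January pool on each of the 65 arrays for Q11A11, Q10C17, Q8D19 and Q7J19, by month of harvest and coloured by whorl, 1 point an array. January arrays of Whorls 1 to 3 are above 0 in all 4 spots, Whorl 0 is above 0 in May and below 0 in July, and Q7J19 has 1 January Whorl 2 array at 1.83.

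In Whorl 0, more of the 150 members were called below the January pool than above it in each month from May to November. Among all eligible spots, more were also called below than above in May, July and November, and fewer in September. In July the group mean was called lower (limma, Benjamini-Hochberg adjusted p below 0.05) in 70 members, where 26.5% of all 7534 spots tested were called lower, and higher in 16 (28.7% of all spots). The median was -0.12, against 0.00 over all spots tested. In September 59 members were lower (23.3% of all spots) and 24 higher (26.7%), with a median of -0.10. In November 31 were lower (14.2%) and 8 higher (12.9%), with a median of -0.03. Without replicate 2 the members lower in November were 14, where 7.64% of all spots were, and those higher 2 (6.91%). Without replicate 1 they were 18 (10.9%) and 3 (10.5%). The members higher in September were 14 without replicate 1 (21.6%) and 14 without replicate 2 (21.4%).

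In May 46 members were lower (28.5% of all spots) and 30 higher (27.3%), and without replicate 2 there were 29 lower (21.6%). All members are eligible spots, and over the eligible spots alone the share called lower was 35.1% for May, 29.6% for July, 26.1% for September and 15.4% for November. The share called higher was 25.8%, 28.0%, 27.6% and 13.3% in the same order. For May both shares of the members, 30.7% lower and 20.0% higher, lay below those of the eligible spots. The array medians of the members stayed close together, from -0.06 to -0.02 in May and from -0.15 to -0.08 in July. 12 members were called lower in all 4 months, where 2.12% of 7362 spots were, and 1 was called higher in all 4, where 4.86% were. In 23 members no month was called, as in 15.2% of those spots. With the values quantile-normalized, the members called higher were 18, 9 and 9 for May, July and September, and those called lower 33, 61 and 57. The share over all spots in that fit is not given, so these counts show only how the calls moved.

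Members whose next highest month was March or November are given apart from the others. Of these 88, 49 were called lower and 8 higher in Whorl 0 in July. September gave 44 lower and 8 higher, with a median of -0.13. Of the 62 whose next month was May, July or September, 21 were called lower and 8 higher in July. September gave 15 lower and 16 higher in this class, with a median of 0.04. In November 14 of the 88 and 17 of the 62 were lower, with medians of -0.03 and -0.04. Each class had 4 members higher in that month. In May 33 of the 88 and 13 of the 62 were lower, with medians of -0.10 and 0.03. Those higher in May were 11 of the 88 and 19 of the 62. More of the 62 were thus called higher than lower in that month, unlike the 88. The shares over all spots are those given above for each month. The classes come from the mature needles alone, and the difference between them was not tested. Among the 57 members chosen again after plate centring, 33 were called lower in July and 6 higher. On plate 9, 24 of 37 members were called lower in July, with a median of -0.16. Of the 277 eligible spots of that plate 48.4% were, with a median of -0.12. In the other months 15 of the 37 were lower in May (41.5% of those eligible spots), 19 in September (43.7%) and 2 in November (7.58%).

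The member lowest over Whorl 0 was Q14J16, with a mean of -0.59 over the 4 months. Its September arrays read -1.39, -2.06 and -1.12, all below its other Whorl 0 arrays, after 0.35, 0.05 and 0.24 in May. The September group mean was -1.52 ± 0.15 (SE, n = 3; limma adjusted p = 1.8e-11), and November rose above September by 1.24 ± 0.22. Q9F19, with an r of 0.93 to Q14J16 over the 65 arrays, read -1.11, -1.15 and -0.73 in September Whorl 0 and rose by 0.86 ± 0.15 to November. Both were also low in the mature needles of July and September, where the 18 arrays of Q9F19 lay between -1.08 and -0.28. Both members were thus below the pool in July and September in every needle age sampled.

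Another set of members was as high or higher in young needles than in any January group. Q7I8 was highest over Whorl 0, with a mean of 1.09, and it was the member called higher in all 4 months. Its May arrays read 1.24, 1.41 and 1.47, and its July arrays 0.80, 1.35 and 1.40. The September arrays (0.89, 1.01 and 0.91) and those of November (0.76, 0.81 and 1.06) overlapped with July. Its January Whorl 1 arrays stood at 0.68, 0.72 and 0.44, while those of Whorls 2 and 3 lay between -0.11 and 0.01. Q7J5 read 1.59, 1.40 and 1.56 in May Whorl 0 and had fallen to 0.16, 0.19 and 0.02 by September. Q7J13 ran from 1.27, 1.12 and 1.42 in May to -0.56, -0.56 and 0.35 in November, a month in which 1 array stood apart from the other two. By a weaker criterion, 37 members had a Whorl 0 group mean above their own January mean over Whorls 1 to 3. This held for 25 members with the May mean, 14 with that of July, 20 with September and 6 with November. The January means chose the members, and no share over eligible spots was counted, so these counts are a description without a background.

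**Figure D4:**
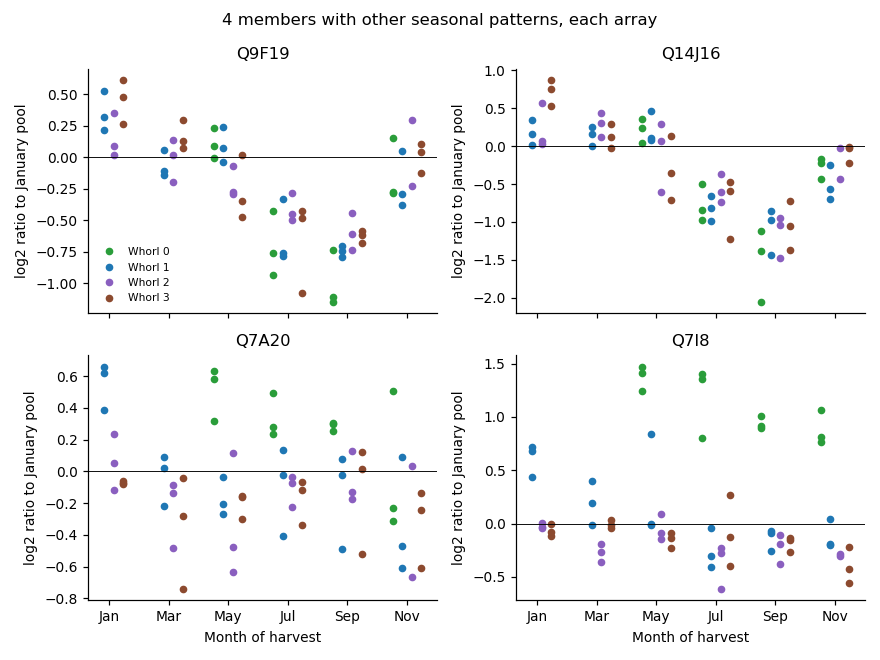
Log2 ratio to the January pool on each of the 65 arrays for Q9F19, Q14J16, Q7A20 and Q7I8, by month of harvest and coloured by whorl, 1 point an array. Q9F19 and Q14J16 have their lowest group means in July and September in all whorls, and Q7I8 is above 0 on all 12 Whorl 0 arrays and near 0 in January Whorls 2 and 3.

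Within Whorl 0 the members called between May and July mostly fell. July was lower than May in 28 members (10.3% of all spots) and higher in 4 (15.1%), with a median difference of -0.08 against 0.00 over all spots. The 4 higher ones included Q17H16, which rose from -0.53, -0.61 and -0.63 to 0.15, -0.15 and -0.28, and Q21N2, which rose by 0.48 ± 0.11. Q1M19 rose from 0.94, 0.84 and 0.93 in May to 0.74, 1.38 and 1.29 in July, where the months overlap, and by September was down to 0.10, 0.25 and 0.02. From July to September 25 members rose (10.9%) and 11 fell (11.2%), and without replicate 2 there were 12 that rose (7.11%) and 7 that fell (6.69%). Without replicate 1, 6 fell (7.88%). Q22B9 rose by 0.66 ± 0.15, from between -0.82 and -0.71 to 0.02, 0.01 and -0.39. Q2H22 fell by 0.77 on the log2 scale, from 0.37, 0.56 and 0.48 to -0.39, -0.32 and -0.17.

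From September to November, as the new needles entered winter, 27 members rose (15.8% of all spots) and 15 fell (21.6%), with a median of 0.01. Against the mean of May, July and September, November was higher in 34 members (21.3%) and lower in 25 (24.6%), with a median of 0.03. The counts moved with the arrays used. Without replicate 2, November minus September gave 15 higher (6.96% of all spots) and 5 lower (11.9%), without replicate 1 it gave 20 (8.11%) and 9 (13.7%), and without replicate 3 it gave 26 (14.9%) and 29 (22.1%). Against the other months November gave 16 higher (12.6%) and 9 lower (16.1%) without replicate 2, 26 (16.8%) and 11 (18.9%) without replicate 1, and 27 (19.9%) and 31 (24.5%) without replicate 3. Plate 9, which holds 37 members, had 13 of the 34 and 2 of the 25. The share over the eligible spots of that plate is not given for this comparison, so these plate counts stand without a background. After plate centring 24 members were called higher and 22 lower, and with quantile normalization 27 and 8. For these settings the share over all spots is not given. Q1A5 rose most against the other months, by 0.57 ± 0.13 (limma adjusted p = 0.00027). Its November arrays read 0.55, 0.32 and 0.25, above its 9 earlier Whorl 0 arrays, which lay between -0.35 and -0.04. Q6G9 and Q14J16 rose by 0.40 and 0.41. Q5E3 fell from 0.48, 0.38 and -0.27 in September to -0.63, -0.65 and -0.62, a difference of -0.83 ± 0.18, and Q5O23 fell by 0.59 on the log2 scale.

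Some members stood below the pool in most of the Whorl 0 groups. Q13F2 read between -0.67 and -0.20 on all 12 Whorl 0 arrays and was called lower in each of the 4 months, by 0.63 in May and 0.56 in November. Q16L8 was lower by 0.18 in May and by 0.53 in November. Q17O9 was lower by 0.74 in both July and September. Q2H10 and Q6G9 were lowest in May, at -0.83 ± 0.18 and -0.81 ± 0.07. Replicate 3 of Q2H10 lay above the other replicates in January, at 1.10, 1.19 and 0.94 in Whorls 1, 2 and 3 against 0.34 to 0.63, and above them in all 4 months of Whorl 0. Q6A5 and Q1M19 were high in July Whorl 0 at 0.82 ± 0.10 and 1.14 ± 0.06, while the 9 July arrays of Whorls 1 to 3 lay between -0.52 and -0.36 for Q6A5. Q9I12 was highest in September, at 0.44, 0.59 and 0.43, and Q4M16 in November, at 0.31, 0.63 and -0.03, which overlapped September.

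In January the youngest whorl then on the tree, Whorl 1, was compared with Whorls 2 and 3. The choice used these arrays with equal weight for each whorl, and a member raised by 1 whorl can have entered through it, so that the share called is a description beside the background. Whorl 1 was higher in 15 members (2.33% of all spots) and lower in 0 (4.97%), with 39 higher and 1 lower at an unadjusted p below 0.05. No share over all spots was counted at that unadjusted threshold, so the 39 and 1 stand without a background. The median difference was 0.07, against 0.00 over all spots. In January the replicate numbers paired the whorls, and with the number as a block within each month 25 members were higher (5.19% of all spots in that fit) and 0 lower (8.71%). Without replicate 2 the count was 3 (0.634% of all spots), and without replicate 1 it was 5 (0.566%). Of the 15, 12 were among the 57 chosen again after plate centring.

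Q7J5 read 1.06, 0.54 and 0.94 in January Whorl 1, 0.38, 0.22 and 0.34 in Whorl 2 and 0.01, 0.09 and 0.06 in Whorl 3. The 3 whorls did not overlap, and Whorl 1 was higher by 0.66 ± 0.13 (SE). Q7I8 was higher by 0.66 ± 0.13 as well, Q7J13 by 0.63 ± 0.17 and Q7A20 by 0.56 ± 0.17. Q7A20 read 0.66, 0.38 and 0.62 in Whorl 1 and between -0.12 and 0.24 in Whorls 2 and 3, and these spots were also above the pool in May Whorl 0. Q8L18 stood at 0.31, 0.34 and 0.03 in Whorl 1 and between -0.45 and -0.17 in the older whorls. The largest differences, 1.28 ± 0.37 in Q7C12 and 0.96 ± 0.21 in Q6D19, rested on Whorl 1 replicate 2 alone. Without replicate 2 they were -0.14 (adjusted p = 0.615) and 0.13 (adjusted p = 0.759) in the limma fit.

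Between the 2 older whorls in January no member was called, higher (1.13% of all spots) or lower (2.26%), in limma, with 15 higher and 10 lower at an unadjusted p below 0.05. The unadjusted counts again stand without a share over all spots. With the replicate number as a block within month 2 were higher (3.22%) and 2 lower (3.69%). With quantile normalization 13 were higher and 3 lower, for which the share over all spots is not given. In the other 5 months Whorl 1 was higher than Whorls 2 and 3 in 6 members (2.2%) and lower in 1 (2.63%). The 6 were Q22B9, Q8L18, Q3I10, Q7I8, Q21N2 and Q8D19, and the 1 was Q7B9, lower by 0.15. For Q22B9 the difference of 0.37 ± 0.06 outside January stood beside 0.47 ± 0.13 in January. With the block within month 12 were higher (4.83%) and 5 lower (5.24%). Without replicate 3 the count higher was 2 (0.645%), and without replicate 2 it was 3 (0.391%).

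The January whorl difference itself was set against that of the other 5 months. The same January arrays chose the members, and a member raised in January by 1 whorl could enter through it, so that these counts are also a description and no independent test. The difference was larger in 8 members (1.39% of all spots) and smaller in 0 (4.51%), with 28 larger and 3 smaller at an unadjusted p below 0.05. No share over all spots goes with the 28 and 3. With the number as a block within month 15 were larger (3.76%), and after plate centring 5 (1.37%). Q2L24 read 0.46, 1.15 and 0.65 in January Whorl 1 and 0.15, 0.09 and -0.02 in Whorl 3, and its January difference exceeded that of the other months by 0.52 ± 0.13. Without replicate 2 this was 0.31 (limma adjusted p = 0.444). For Q7J5 and Q7I8 the excess over the other months was 0.48 ± 0.15 and 0.46 ± 0.14. Without replicate 2, which holds the 2 single high readings, 0 members were called (0.14% of all spots), without replicate 1 there were 3 (0.408%) and without replicate 3 there were 5 larger (1.74%) and 1 smaller (4.86%).

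**Figure D5:**
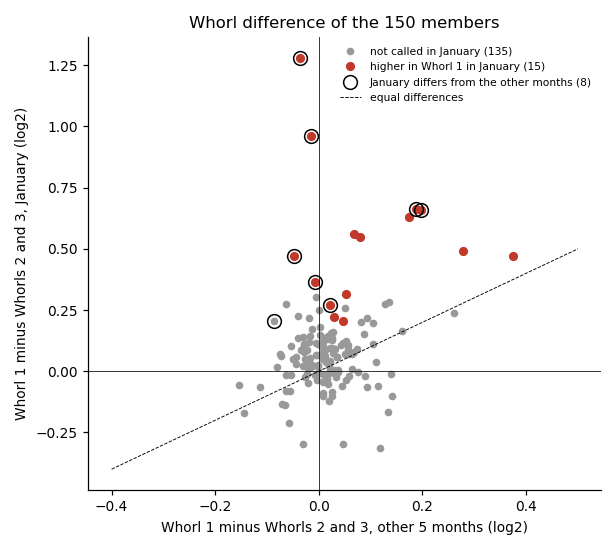
Whorl 1 minus the mean of Whorls 2 and 3 in January (vertical) against the same difference averaged over the other 5 months (horizontal), in log2, 1 point for each of the 150 members. The 15 called in January are red and the 8 whose January difference departs from the other months are ringed, and the 2 highest points, Q7C12 and Q6D19, rest on 1 array.

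The members did not move as 1 block in young needles. The median Pearson's r between pairs of members over the 12 Whorl 0 arrays was 0.11, with the quartiles at -0.21 and 0.42, beside a median of 0.01 over pairs of eligible spots. Pairs with an r above 0.9 were 28 of 11175 among members, or 0.251%, and 0.397% among eligible spots. The 12 arrays are 4 months of the same trees, and no p is given. Besides the 4 leading spots, Q9D13 ran with Q9L17 at an r of 0.94 over the 65 arrays, and Q19H24 with Q3D1 at 0.94. Q9D13 and Q9L17 both lie on plate 9, and neither was chosen after plate centring. Q19H24 and Q3D1 lie on plates 19 and 3, and both were chosen again. Q9D13 was the 1 of the first 12 members not chosen after plate centring. It read 0.25 to 1.09 in January and 0.74, 0.26 and 0.11 in September Whorl 0.

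Of the other leading members, Q8L18, Q5E18, Q5M9 and Q19H24 had a January excess of 0.26, 0.25, 0.25 and 0.24, with unlike courses over the year. The mean of Q8L18 in Whorls 1 to 3 fell to -1.15 in July, while those of Q5M9 outside January stayed between -0.44 and -0.39. Q5E18 read between -0.22 and 0.17 in January, between -0.67 and -0.41 in July Whorls 1 to 3 and -0.58, -0.50 and -0.84 in July Whorl 0. Q5M9 was above 0 in January in Whorl 1 alone, at 0.11, 0.05 and 0.04, and between -0.42 and -0.04 in the older whorls. Q19H24 was below the pool on 7 of the 9 January arrays and still highest in that month, with a January mean of -0.20 against -0.44 in November, the next month. The January mean was above 0 in 137 members, where it was in 49.6% of all eligible spots, and these means entered the choice. In the other 13 members it was below 0. Their January needles thus lay below the January pool on this scale, which also carries any dye bias. Q8L18 was low in summer, at -1.19, -1.31 and -1.48 in July Whorl 3, and was lower than the pool by 0.86 ± 0.10 in July Whorl 0.

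The 43 spots that the study names could not be members. Of these, Q7F2, described as a CRK1 protein, had the largest January excess, 0.12, and would have lain above the last member, but it had a value on 56 arrays. It read 0.22 to 0.54 in January and 0.08 to 0.41 in March, which overlap. Q13B15, described as a hexose transporter, one of the proteins that carry simple sugars across membranes, came next at 0.01. It stood between -0.12 and 0.10 in January, between -0.63 and -0.12 in July Whorls 1 to 3 and was back at -0.12, -0.05 and 0.02 in November Whorl 0. Q3A4, without description, had -0.04, and the R2R3-Myb transcription factors Q16P17 and Q11F13 had -0.12 and -0.13. The lowest were Q11E4, described as elongation factor 1-alpha, which delivers aminoacyl-tRNA to the ribosome, at -1.77, and Q11J18, a fatty acid or sphingolipid desaturase, at -1.47. Q11E4 read between -0.95 and -0.22 in January and between 0.75 and 1.27 in July Whorls 1 to 3. Q11J18 was highest in November, from 0.07 to 0.93 in the arrays used, and between -1.27 and -0.50 in January. Over the 12 Whorl 0 arrays Q13B15 had an r of 0.35 to the mean of the members and Q11J18 one of 0.59. Q11F13 had an r of -0.37 and Q11E4 one of -0.42. Among the described spots the highest r was 0.65, in Q12L10, a cold acclimation protein with a January excess of -0.61. The lowest was -0.88, in Q13C16, without description and with a value on 7 of these arrays.

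The left-out array of November Whorl 2, an outlier in the study's clustering, took no part in the choice and had a value for 148 members. Their median on it was -0.01, inside the -0.08 to 0.06 of the 11 other November arrays. The distance between the quartiles of the members was 0.40 on that array and between 0.19 and 0.27 on the other November arrays.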

How the data were processed

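Deposited log2 ratios of Cy3 needle RNA over the Cy5 January pool, which the authors had normalized with BABAR, were analysed without further scaling. The base of the logarithm was not given and was taken as 2, and positive values were taken to mean a higher level than the pool's. Eligible spots had a value on all 65 arrays used (5823 of 8208), less 35 of the 43 spots that the study names. The members and comparisons were chosen with earlier results of these data known.

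The tests were made with limma 3.58.1 (R 4.3.3), in which the 22 groups each had a mean of their own and variances were moderated. A spot was tested if it was measured on 0.5 or more of the arrays and in all groups of the comparison, and p-values were two-sided and Benjamini-Hochberg adjusted over all of them, with a threshold of 0.05. The fit was run on simulated data with noise drawn independently for each array. That setting lacks the correlation between same-numbered arrays given below, so the check does not cover it. The number of arrays limits the precision, and p-values measure the spread between pools of the same 6 trees. Deviations of same-numbered arrays of different January whorls had a correlation between 0.11 and 0.42 over 9 pairs, so that the numbers pair the whorls in January. In Whorl 0 of different months they ran from -0.13 to 0.29. The study ties the replicate number to an individual in its sample names but pools trees for the arrays, so whether a number marks the same trees in every month was not settled here, and the fit with the number as a block over months is given among the alternatives.

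The spots named are the 12 members with the largest January excess, the spots on both sides of the border, the 3 members with the largest called difference in each direction of each comparison, the highest and lowest member over Whorl 0, and the 5 highest and 2 lowest described spots. Q9L17, Q3D1, Q4L1, Q5G24, Q12L10 and Q13C16 were named after their values were seen.

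Alternatives were quantile normalization, complete spots only, the left-out array added, the replicate number as a block, a random block of pool within month, only the whorls compared, and each replicate number left out. Plate centring, a block of the number within month and the loss of January Whorl 2 replicate 3 were added after the data were seen, as were the classes by next highest month, the gap of 0.5 for members that rest on 1 array, and the counts for plate 9 and for members chosen again.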

Additional observations from a re-analysis of the deposited data

Results flagged for a closer look

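Whorl 1 minus Whorls 2 and 3 differed between January and the other months, by a test of the difference itself, in 8 members where it was larger (1.39% of all spots) and in 0 where it was smaller (4.51%). These January arrays also chose the members, so that the count is no independent evidence, and leaving out 1 replicate number it was 0 to 5 larger, with 0 without replicate 2. The difference was 1.32 in Q7C12, 0.98 in Q6D19 and 0.52 in Q2L24. In the first 2 of these the January Whorl 1 replicate 2 array read 4.24 and 2.47, and the other 2 arrays of that group were at or below 0.24.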

How the results depend on the processing

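Counts of members are given here as called higher and lower, mostly without the share over all spots of the same fit. They describe how the counts moved with the processing and are not set against a background. With quantile normalization Whorl 0 against the pool gave 18 higher in May, 9 in July and 9 in September. July minus May gave 2 higher, September minus July 14 higher and 7 lower, November minus September 9 lower and November minus the other months 8 lower. Whorl 1 minus Whorls 2 and 3 gave 2 lower in January and 2 lower in the other months, Whorl 3 minus Whorl 2 gave 13 higher and 3 lower, and the January difference against the other months 14 higher and 2 lower. With complete spots only, with the left-out array and with a replicate block (numbers shared by all months), Whorl 1 in the other months gave 2 lower each time, and the block changed no other count by over 1.5 times. Taking each pool of a month as a random block, Whorl 1 in January gave 1 lower, Whorl 3 minus Whorl 2 gave 3 higher and 1 lower, Whorl 1 in the other months 12 higher and 5 lower, and the January difference against the other months 16 higher and 1 lower. The replicate block within month gave 25 higher for Whorl 1 in January, 2 higher and 2 lower for Whorl 3 minus Whorl 2, 12 higher and 5 lower for the other months, and 15 higher for the January difference. After plate centring Whorl 3 minus Whorl 2 gave 1 lower and the January difference 5 higher. The choice kept 51 members when the mean of the other 5 months stood in for their highest, 57 after plate centring, 101 to 142 under the other planned settings with all replicates, and 103 to 138 when arrays were left out. The cause was not tested in any of these.

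Leaving out 1 replicate number at a time, or January Whorl 2 replicate 3 where that array was compared, Whorl 0 against the pool gave 22 to 28 higher and 29 to 40 lower in May, 13 to 14 and 49 to 68 in July, 14 to 25 and 40 to 49 in September, and 2 to 7 and 14 to 36 in November. July minus May gave 3 to 4 higher and 21 to 24 lower, September minus July 12 to 23 and 6 to 10, November minus September 15 to 26 and 5 to 29, and November minus the other months 16 to 27 and 9 to 31. Whorl 1 gave 3 to 17 higher and 0 to 1 lower in January and 2 to 4 and 0 to 1 in the other months, Whorl 3 minus Whorl 2 gave 0 to 1 and 0 to 1, and the January difference 0 to 5 and 0 to 1. Q7C12 was -0.143 in January and -0.124 against the other months without replicate 2, both reversed, and 2.085 and 2.103 without replicate 1. Of the values of named spots under all these settings, 553 kept their direction and call and 38 kept their direction alone. The median SE over members was 0.06 for Whorl 0 against the pool and 0.09 between its months, so that differences of that size were not detectable with 3 arrays a group.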
